A study of Mus musculus with 10 samples.

Results

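Ccl2, Ccl3, Ccl4, Ccl6, Ccl7, Ccl8, Ccl9 and Ccl12, which encode chemokines that draw monocytes into tissue, and Ccr1 and Ccr2, which encode receptors for such chemokines, were examined in melanoma grafts. These 10 genes, 8 ligands and 2 receptors, were chosen by symbol from 29890 listed genes, and all 10 passed the filter of a mean of at least 1 TPM that left 15276 genes for testing. The tumors grew under the skin of female C57BL/6J mice aged 7 to 8 weeks from 3000000 injected cells of B2905-M4, a mouse melanoma line. In 5 of them the line overexpressed Adamts7, which encodes a secreted matrix protease, and in 5 it carried vector overexpression as the control (Vec). No mouse received immunotherapy. The vector and the promoter that drive overexpression, and how many separately made cell populations were used, are not stated.

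According to the series' design, 2 Adamts7 tumors were taken on day 35, 3 of each kind on day 45 and 2 Vec tumors on day 50. The Adamts7 tumors grew faster, so day, size and group cannot be told apart, and no day is tied to a tumor. Each tumor gave 1 library of polyadenylated RNA, and the p-values measure the spread between these tumors. Levels are in TPM, a transcript abundance that is scaled for transcript length and keeps no depth, so the depth behind each value is unknown. Between 21515 and 23859 genes were above 0 TPM in a tumor. Adamts7 itself averaged 71.2 ± 30.8 TPM in Adamts7 tumors and 15.6 ± 11.3 TPM in Vec tumors (SD, n = 5 each). The tumor labelled Adamts7 5 had 18.2 TPM of it, below Vec 3 and Vec 5. Vec 3 and Vec 5 stood apart from the other Vec tumors, with 6.13 and 274 TPM of the melanosome gene Pmel against 3424 to 8390 TPM in Adamts7 tumors and 1107 to 4380 TPM in Vec 1, 2 and 4. The group differences of the 10 genes and the medians of the other lists are therefore also given without them. The label of each tumor was kept as given.

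Chemokines are small secreted proteins that bind seven-pass G protein-coupled receptors and steer cells along a gradient. In the mouse, Ccl2, Ccl7 and Ccl12 bind Ccr2, the receptor that classical Ly6C-high monocytes use to leave the bone marrow and enter inflamed tissue or tumors. Ccl8 belongs to the same monocyte chemoattractant protein group, but in the mouse it is best known as a ligand of Ccr8. Ccl3 binds Ccr1, Ccl4 is its close relative, and Ccl6 and Ccl9, which are rodent genes, are ligands of Ccr1. Tumor monocytes and macrophages are both sources of these ligands and carriers of the receptors.

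RefSeq promoter windows of build GRCm38.p6, with 250 bases before and 50 after the transcript start, were matched to 7 of the 10 genes. Ccl6 and Ccl9 are shown first because both encode Ccr1 ligands and their windows were the most alike of all 21 pairs, with 71.1% identity over 239 aligned bases against a median of 63.2%. Capitals mark their longest shared stretch of 13 bases, where the median pair shared 8. Ccl6 lies at chr11:83593038-83593337 and Ccl9 at chr11:83578587-83578886, both on the minus strand.
Ccl6: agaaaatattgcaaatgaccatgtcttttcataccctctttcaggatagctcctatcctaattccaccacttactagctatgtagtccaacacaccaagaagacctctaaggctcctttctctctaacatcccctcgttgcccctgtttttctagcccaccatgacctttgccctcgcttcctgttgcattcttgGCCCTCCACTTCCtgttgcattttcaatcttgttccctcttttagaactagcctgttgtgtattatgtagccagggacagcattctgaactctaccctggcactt
Ccl9: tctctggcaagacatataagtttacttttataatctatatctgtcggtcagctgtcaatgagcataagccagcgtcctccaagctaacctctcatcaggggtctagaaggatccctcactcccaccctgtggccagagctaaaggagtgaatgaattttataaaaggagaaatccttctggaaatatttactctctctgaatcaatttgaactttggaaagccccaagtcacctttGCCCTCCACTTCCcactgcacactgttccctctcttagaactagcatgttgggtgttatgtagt

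Ccl8 and Ccl12 are shown because they are neighbours in the chemokine cluster of chromosome 11 and Ccl8 had the widest range of all 10 genes on the log2(TPM + 1) scale. Their windows lie at chr11:82114935-82115234 and chr11:82101595-82101894, both on the plus strand, and had 65.0% identity. Capitals mark the TATA box motif TATAAA, which began 32 bases before the start of Ccl8 and 31 bases before that of Ccl12.
Ccl8: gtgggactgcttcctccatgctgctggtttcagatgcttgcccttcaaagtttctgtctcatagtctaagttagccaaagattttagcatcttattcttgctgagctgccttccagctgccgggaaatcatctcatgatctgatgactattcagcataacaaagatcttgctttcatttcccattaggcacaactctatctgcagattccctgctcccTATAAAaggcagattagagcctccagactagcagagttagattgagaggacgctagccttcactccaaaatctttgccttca
Ccl12: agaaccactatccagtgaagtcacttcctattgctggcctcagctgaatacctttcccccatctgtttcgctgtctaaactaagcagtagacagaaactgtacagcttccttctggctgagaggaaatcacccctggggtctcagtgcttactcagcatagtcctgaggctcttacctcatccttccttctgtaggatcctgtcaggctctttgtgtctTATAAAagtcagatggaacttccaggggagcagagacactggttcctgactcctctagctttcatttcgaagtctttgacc

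Searched on both strands, TATAAA was in 3 of the 7 windows, those of Ccl8, Ccl9 and Ccl12, against 13.6% of 32851 promoter windows of the same length. GAGGAA, the core bound by the myeloid factor PU.1, was in 4 of the 7 windows, those of Ccl3, Ccl8, Ccl12 and Ccr1, against 28.3%. The AP-1 motif TGANTCA was in that of Ccl9 alone, against 7.81% of all windows. The NF-kappa B motif was in those of Ccl9 and Ccr1, against 8.46%. The matches describe letters in these windows and say nothing of binding in the tumors.

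All 10 genes had lower means in Adamts7 tumors than in Vec tumors, by log2 fold changes between -0.43 for Ccr1 and -1.89 for Ccl8, but the spread was wide and the groups overlapped in every gene. None of the 10 passed the test over all genes (limma, Benjamini-Hochberg adjusted p of at least 0.188), where 30 of 15276 genes, 0.196%, were lower and 4 were higher. Ccl4, Ccl8 and Ccr2 were lower at an unadjusted p under 0.05, that is 3 of 10 genes beside 15.3% of all tested genes. This count was 1 with median-of-ratios scaling, quantile normalization, a prior variance without a trend or no filter on low values, and 0 with tumor weights, and under median-of-ratios scaling 1521 of all tested genes were lower by the same rule. With 1 tumor left out this count ran from 0, without Adamts7 4 or Vec 3, to 4, without Vec 1 or Vec 4. The groups failed to overlap in 0 of the 10 genes and in 4.89% of all tested genes. The median log2 fold change was -1.18 over the 10 genes and -0.10 over all tested genes, of which 60.2% were negative. In bulk tumors, fewer cells that make a transcript and less transcript per cell cannot be told apart.

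**Figure D1:**
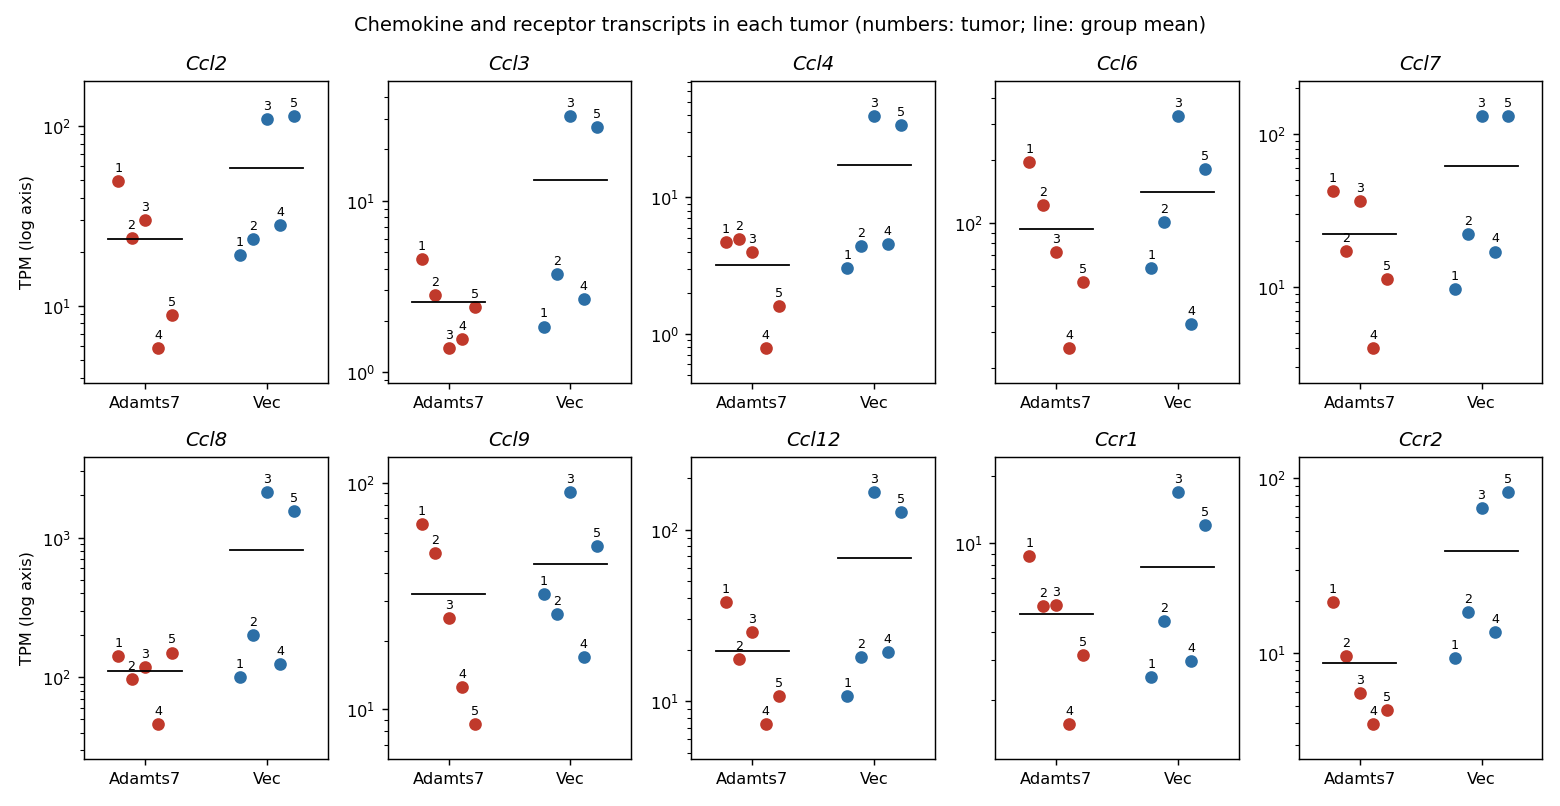
TPM (log axis) of the 10 genes in each of the 5 Adamts7 and 5 Vec tumors, with tumor numbers beside the points and a line at the group mean. Vec 3 and Vec 5 lie at the top of most panels, and the other Vec tumors lie within the range of the Adamts7 tumors or close above it.

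Among the ligands of the monocyte chemoattractant protein group, Ccl8 had the highest levels and the widest range on the log2(TPM + 1) scale. Ccl8 was at 142, 97.6, 119, 46.2 and 150.2 TPM in tumors labelled Adamts7 1 to 5, against 100.45, 199.9, 2132, 125 and 1539 TPM in tumors Vec 1 to 5. Vec 3 and Vec 5 were high, and the other Vec tumors lay among or just above the Adamts7 tumors. Its means were 111 ± 41.7 TPM in Adamts7 tumors and 819 ± 952 TPM in Vec tumors (SD, n = 5 each). The log2 fold change of Ccl8 was -1.89 with a standard error of 0.85 (limma adjusted p = 0.245).

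Ccl2, the best-known ligand of Ccr2, was at 49.6, 23.8, 30.1, 5.82 and 8.94 TPM in tumors labelled Adamts7 1 to 5. In Vec tumors 1 to 5 it was at 19.3, 23.7, 109, 28.3 and 114 TPM. Adamts7 1 to 3 had levels like those of Vec 1, 2 and 4 or above them, while Adamts7 4 and the tumor labelled Adamts7 5 were low and Vec 3 and Vec 5 high. The log2 fold change of Ccl2 was -1.23 with a standard error of 0.67 (limma adjusted p = 0.310).

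Ccl7 and Ccl12, the other Ccr2 ligands, had nearly the same profile over the tumors. Ccl7 was at 42.2, 17.2, 36.6, 3.97 and 11.2 TPM in tumors labelled Adamts7 1 to 5, against 9.70, 22.3, 131, 17.1 and 131 TPM in tumors Vec 1 to 5. Ccl12 was at 37.7, 17.6, 25.4, 7.37 and 10.8 TPM in tumors labelled Adamts7 1 to 5, against 10.7, 18.1, 167, 19.4 and 127 TPM in tumors Vec 1 to 5. In both genes Vec 1 was the lowest Vec tumor and lay below 4 of the 5 Adamts7 tumors. Their log2 fold changes were -1.09 (SE 0.82) and -1.14 (SE 0.76), with limma adjusted p-values of 0.448 and 0.398.

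Ccl3 and Ccl4, the macrophage inflammatory protein ligands, were the least abundant ligands. Ccl3 was at 4.60, 2.84, 1.38, 1.56 and 2.39 TPM in tumors labelled Adamts7 1 to 5, against 1.85, 3.74, 31.2, 2.67 and 26.9 TPM in tumors Vec 1 to 5. Ccl4 was at 4.68, 4.92, 3.97, 0.78 and 1.60 TPM in tumors labelled Adamts7 1 to 5, against 3.01, 4.43, 39.6, 4.56 and 34.2 TPM in tumors Vec 1 to 5. In Vec 3 and Vec 5 both genes were over 7 times as high as in any other Vec tumor, and Vec 1, 2 and 4 lay within the range of the Adamts7 tumors. Their log2 fold changes were -1.33 (SE 0.69) and -1.56 (SE 0.70), with limma adjusted p-values of 0.297 and 0.245.

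The Ccr1 ligands Ccl6 and Ccl9 had the log2 fold changes nearest to 0 among the ligands. Ccl6 was at 198, 122, 72.8, 25.0 and 52.1 TPM in tumors labelled Adamts7 1 to 5, against 61.0, 101.3, 328, 32.7 and 182 TPM in tumors Vec 1 to 5. Ccl9 was at 66.2, 49.2, 25.3, 12.5 and 8.62 TPM in tumors labelled Adamts7 1 to 5, against 32.4, 26.4, 91.6, 17.1 and 52.9 TPM in tumors Vec 1 to 5. Adamts7 1 was second only to Vec 3 in both genes and above Vec 5. Their log2 fold changes were -0.47 (SE 0.67) and -0.57 (SE 0.59), with limma adjusted p-values of 0.694 and 0.580.

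Of the receptors, Ccr2 had the larger log2 fold change in size. Ccr2 was at 19.8, 9.61, 5.91, 3.95 and 4.77 TPM in tumors labelled Adamts7 1 to 5, against 9.42, 17.3, 67.7, 13.2 and 84.1 TPM in tumors Vec 1 to 5. Adamts7 1 lay above Vec 1, 2 and 4, Adamts7 2 lay just above Vec 1, and the other Adamts7 tumors lay below every Vec tumor. Its means were 8.80 ± 6.49 TPM in Adamts7 tumors and 38.3 ± 34.9 TPM in Vec tumors (SD, n = 5 each). The log2 fold change of Ccr2 was -1.70 with a standard error of 0.63, and its limma adjusted p of 0.188 was the smallest of the 10 genes.

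Ccr1, which monocytes, macrophages and neutrophils carry, had the log2 fold change nearest to 0 of all 10 genes in the test reported. It was at 8.79, 5.23, 5.30, 1.56 and 3.18 TPM in tumors labelled Adamts7 1 to 5, against 2.52, 4.49, 17.0, 2.99 and 12.1 TPM in tumors Vec 1 to 5. Its median was higher in Adamts7 tumors although its mean was lower there, which was so for no other gene of the 10. The log2 fold change of Ccr1 was -0.43 with a standard error of 0.51 (limma adjusted p = 0.633). With a pseudocount of 0.1 TPM Ccl6, at -0.480, was nearer to 0 than Ccr1, at -0.496. In the authors' deposited table Ccl9, at -0.345, and Ccl6, at -0.485, were nearer to 0 than Ccr1, at -0.597.

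The authors' deposited table, made from the same tumors with another model, gave all 10 genes a negative log2 fold change and called 4 of them lower at an adjusted p under 0.05. By the same rule the authors' deposited table has 1030 of 18796 genes with an adjusted p, 5.48%, lower. The authors' deposited table gave log2 fold changes of -2.75 for Ccl8 (adjusted p = 0.00754), -2.31 for Ccl4 (adjusted p = 0.0386) and -2.26 for Ccl3 (adjusted p = 0.0415). For Ccr2 the authors' deposited table gave -2.03 (adjusted p = 0.0222). The remaining 6 genes had an adjusted p of at least 0.127 in the authors' deposited table.

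The differences of all 10 genes were smaller or turned positive without Vec 3 and Vec 5. One of these tumors was the highest in 10 of 10 genes, and they were the top pair in 8. Adamts7 1 was the highest Adamts7 tumor in 8 genes, and Adamts7 4 was the lowest of all tumors in 8. Without Vec 3 and Vec 5, 5 of the 10 log2 fold changes were negative and 5 positive, with a median of -0.05, and 0 were called beside 0.222% of 14878 genes. Ccr2 had a log2 fold change of -0.72 (SE 0.44) in that fit, Ccl8 of -0.40 (SE 0.38), Ccl4 of -0.39 (SE 0.41) and Ccl2 of -0.35 (SE 0.59). Ccl6, Ccl7, Ccl9, Ccl12 and Ccr1 were on the positive side, with Ccl6 at 0.34 (SE 0.61) and Ccr1 at 0.31 (SE 0.40). In the fit that also omits the tumor labelled Adamts7 5, Ccr2 was at -0.58 (SE 0.45) and Ccl8 at -0.53 (SE 0.38), and the median over the 10 genes was 0.07.

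**Figure D2:**
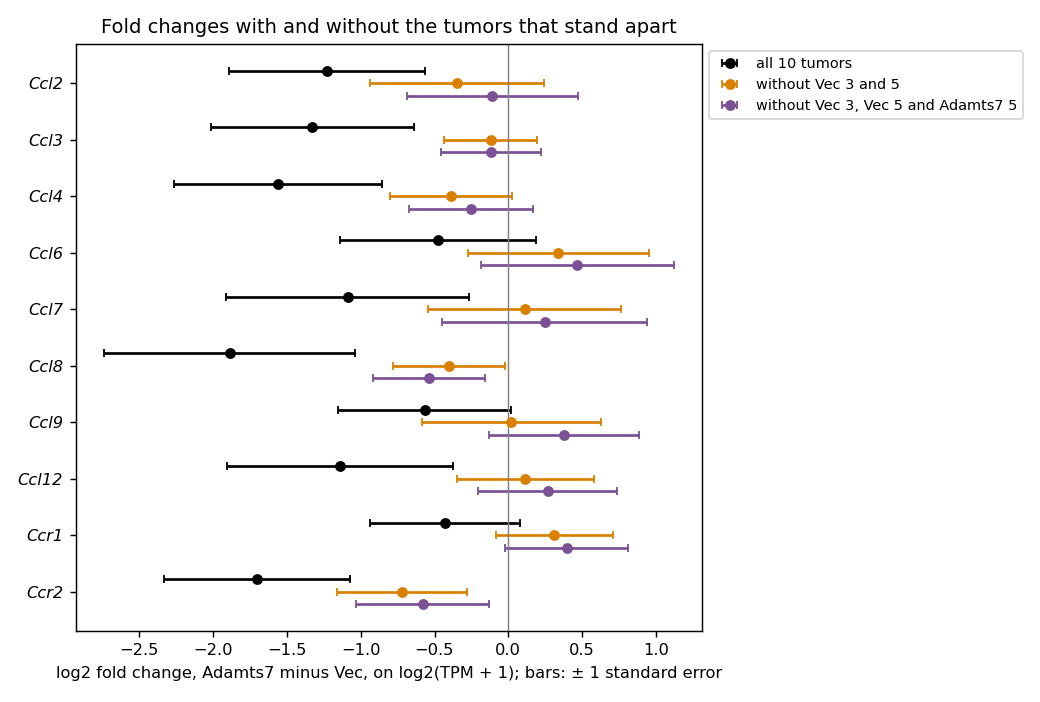
Log2 fold changes of the 10 genes, Adamts7 minus Vec on log2(TPM + 1), with bars of 1 standard error, for all 10 tumors and for the fits that leave out Vec 3 and Vec 5 and also the tumor labelled Adamts7 5. All 10 points are below 0 with all tumors, and 5 of 10 are below 0 in each of the other fits.

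Per transcript, Ccl8 and Ccl6 were the most abundant of the 10 genes. By the median TPM over all 10 tumors the order was Ccl8 at 134, Ccl6 at 87.1, Ccl9 at 29.4, Ccl2 at 26.1, Ccl7 at 19.7, Ccl12 at 18.8, Ccr2 at 11.4, Ccr1 at 4.86, Ccl4 at 4.50 and Ccl3 at 2.76 TPM. Some neighbours in that order were clearly apart, since Ccl6 was above Ccl9, Ccl12 above Ccr2 and Ccr2 above Ccr1 in 10 of 10 tumors. Ccl9, Ccl2, Ccl7 and Ccl12 were not ordered beyond their spread, each being above the next in only 5 or 6 tumors, and neither were Ccr1 and Ccl4.

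The make-up of the ligand transcripts differed between tumors as well as their total. The 8 ligands summed to between 103 and 545 TPM in Adamts7 tumors and between 238 and 3029 TPM in Vec tumors. Ccl8 made up 26.1, 29.2, 37.8, 44.7 and 61.1% of that sum in tumors labelled Adamts7 1 to 5 and 42.1, 50.0, 70.4, 50.7 and 69.7% in Vec tumors 1 to 5. Ccl6 made up 36.3, 36.3, 23.1, 24.2 and 21.2% in tumors labelled Adamts7 1 to 5 and 25.6, 25.3, 10.8, 13.2 and 8.26% in Vec tumors 1 to 5. In Adamts7 1 and 2 Ccl6 was thus the most abundant ligand, and in all other tumors Ccl8 was. The shares of both ligands overlapped between the groups.

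**Figure D3:**
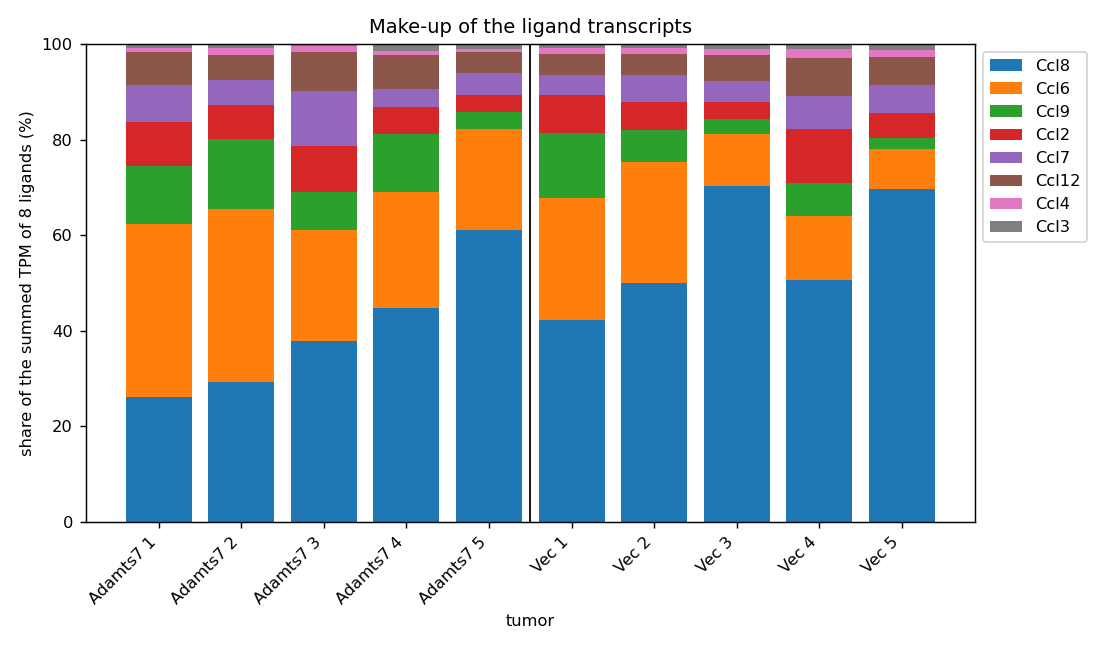
Share (%) of each of the 8 ligands in their summed TPM, by tumor, with the Adamts7 tumors left of the line and the Vec tumors right of it. The Ccl8 share is highest in Vec 3, Vec 5 and the tumor labelled Adamts7 5, at 70.4, 69.7 and 61.1%.

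Within a tumor, the ratio of the 2 receptors did not overlap between the groups, although the levels of each receptor did. The ratio of Ccr2 to Ccr1 was 2.25, 1.84, 1.12, 2.53 and 1.50 in tumors labelled Adamts7 1 to 5 and 3.74, 3.85, 3.98, 4.42 and 6.93 in Vec tumors 1 to 5. Every Adamts7 tumor was thus below every Vec tumor, Vec 1, 2 and 4 included. The ratio averaged 1.85 ± 0.567 in Adamts7 tumors and 4.58 ± 1.34 in Vec tumors (SD, n = 5 each). It was picked out after its values were seen, so no test is given. It was 1 of 2 among the 45 ratios of 2 of the 10 genes that did not overlap between the groups, the other being Ccr1 to Ccl4, at 1.06 to 2.00 in Adamts7 tumors and 0.355 to 1.01 in Vec tumors. Of 15275 tested genes set over Ccr1 in the same way, 238, or 1.56%, did not overlap. Both of these ratios hold Ccr1. The share over all pairs of genes was not computed, and the 4.89% of all tested genes that did not overlap is of plain levels, another measure. Nothing is read from these 2 ratios.

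In the GENCODE vM21 transcripts Ccr2 shares an exact stretch of 152 bases with another gene of the family. A single read of 150 bases can lie within it, and where its mate does too the pair cannot be assigned to 1 gene. The level of Ccr2 is therefore uncertain to an extent that was not measured. The next longest stretch, of 47 bases, was between Ccr1 and Ccr3, and the 8 ligands shared at most 30 bases with any of 36 other chemokine family genes.

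**Figure D4:**
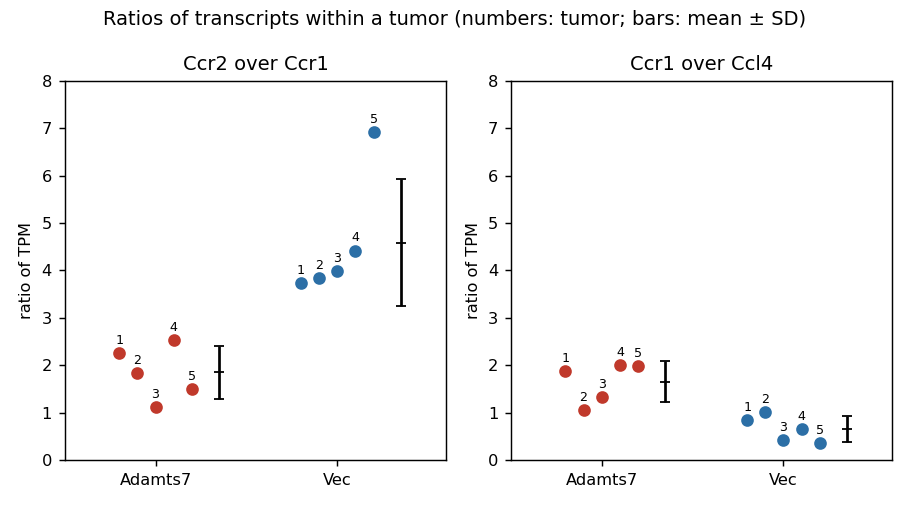
Ratios of TPM of Ccr2 over Ccr1 and of Ccr1 over Ccl4 in each of the 5 Adamts7 and 5 Vec tumors, with bars at mean ± SD. The groups do not overlap in either panel, with the Adamts7 tumors lower on the left and higher on the right.

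The 10 genes fell into profiles that followed the receptors only in part. Likeness was measured as the mean absolute difference, over the 10 tumors, of log2(TPM + 1) values centred on each gene's own mean. It ran from 0.249 between Ccl7 and Ccl12 to 1.14 between Ccl8 and Ccl9, with a median of 0.536 over 45 pairs. Of the Ccr1 ligands, Ccl6 and Ccl9 were at 0.375 and 0.400 from their receptor and at 0.401 from each other, while Ccl3 was at 0.515 from Ccr1. Ccl4 and Ccl3 were the nearest of the 10 genes to Ccr2, at 0.341 and 0.351, and its ligands Ccl12, Ccl2 and Ccl7 lay at 0.386, 0.389 and 0.494. All profiles share the high values of Vec 3 and Vec 5.

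**Figure D5:**
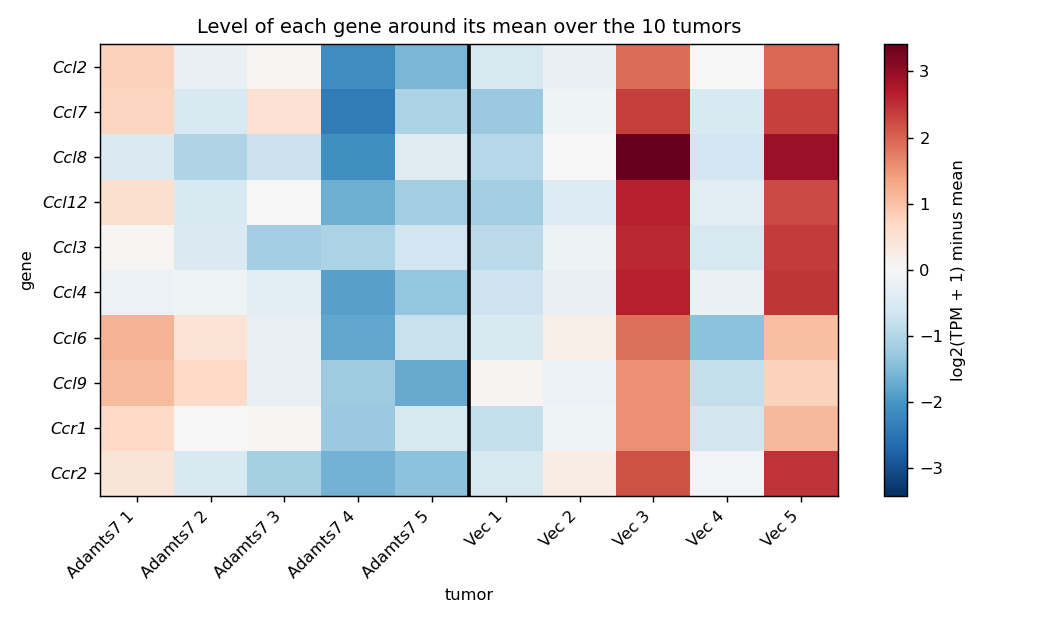
Log2(TPM + 1) of each of the 10 genes minus its own mean over the 10 tumors, by tumor, with the Adamts7 tumors left of the line and the Vec tumors right of it. Red is above and blue below the mean. Vec 3 and Vec 5 are above the mean in all 10 genes, Adamts7 4 is below it in all 10, and Adamts7 1 stands out in Ccl6 and Ccl9.

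Outside the 10 genes, the nearest profiles among 12647 tested genes with ordinary symbols included those of several myeloid genes. Ccr2 was nearest to Cd40, a costimulatory receptor of antigen-presenting cells, at 0.122, and to Cd48 at 0.170. Ccl2 was nearest to Ms4a6d at 0.155 and Clec4a2 at 0.177. Ccl9 was nearest to Csf1r, the receptor for the macrophage growth factor, at 0.200 and to Cmklr1 at 0.224. Ccl6 was nearest to Mgl2 and Mrc1, lectin receptors of tissue macrophages, at 0.232 and 0.235. Ccl12 was nearest to Ctss, a lysosomal protease, at 0.214 and to Bcl2a1b at 0.235, and Ccl4 to Gmfg at 0.180 and Tyrobp, a myeloid signalling adaptor, at 0.185. Ccl8 was nearest to Gbp2b, an interferon-induced guanylate-binding protein, at 0.308 and to Tcim at 0.331, and Ccl3 to Itga10 at 0.155 and Ms4a7 at 0.186. Ccr1 was nearest to Ms4a8a at 0.152 and Nuak1 at 0.162, and Ccl7 to Rnase4 at 0.294 and Clec4a2 at 0.317.

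Of the remaining CC chemokine family, 9 other ligands and 4 other receptors were tested, and all 13 had negative log2 fold changes. By limma 0 were called, and 2 ligands and 1 receptor were lower at an unadjusted p under 0.05. The median was -1.10 in both lists. Without Vec 3 and Vec 5 it was -0.19 over the 9 ligands and -0.25 over 3 receptors, since Ccr8 then fell under the filter. Ccr8, the receptor best known for Ccl8 and Ccl1 in the mouse, was at 0.64, 0.56, 0.69, 0.20 and 0.10 TPM in tumors labelled Adamts7 1 to 5, against 1.46, 1.68, 4.98, 1.54 and 5.52 TPM in tumors Vec 1 to 5. These groups did not overlap, beside 4.89% of all tested genes. Ccr8 averaged 0.44 TPM in Adamts7 tumors and 3.04 TPM in Vec tumors. It thus passed the filter only through the Vec tumors, and nothing is read from the lack of overlap. The log2 fold change of Ccr8 was -1.37 (SE 0.33, limma adjusted p = 0.101). Ccl1 averaged 3.61 TPM in Adamts7 tumors and 18.3 TPM in Vec tumors, with a log2 fold change of -1.59 (SE 0.62, limma adjusted p = 0.203). Of the other named genes of these lists, Ccl27a and Ccl17 had log2 fold changes of -1.10 and -1.54, and Ccr7 of -1.02. Ccl21a was at -3.07 (SE 1.47, limma adjusted p = 0.268), with 48.3 and 397 TPM in Vec 4 and Vec 5. It was at 0, 3.78 and 0 TPM in Vec 1, 2 and 3, and at most 0.47 TPM in Adamts7 tumors.

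Genes that induce monocyte chemokines had a median log2 fold change of -1.0 over 13 tested, with 10 negative and 3 positive. By limma 0 were called, with 6 lower and 1 higher at an unadjusted p under 0.05, and without Vec 3 and Vec 5 the median over the 12 then tested was -0.28. Irf1, a transcription factor induced by interferons, averaged 47.3 ± 12.01 and 167 ± 97.3 TPM in Adamts7 and Vec tumors (SD, n = 5 each; limma adjusted p = 0.0840). Its groups did not overlap, which was so for 4.89% of all tested genes and for none of the 10 chemokine and receptor genes. Nfkbia and Nfkb1 of the NF-kappa B pathway were also lower on average, Nfkbia at -1.0 (SE 0.28) and Nfkb1 at -0.72 (SE 0.21) on the log2 scale. Rela of the same pathway went the other way, at 0.17 (SE 0.13).

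Chemokine receptor signalling genes had a median of -0.81 over 12 tested, with 10 negative, 0 called by limma and 3 lower at an unadjusted p under 0.05. Among them were the kinase Ptk2b, at -1.03 (SE 0.42), and Rgs1, which ends G protein signals, at -1.27 (SE 0.54). Other monocyte attractants and their receptors had a median of -0.66, with 11 of 11 negative, and limma called 0 and put 0 at an unadjusted p under 0.05. Among them were the macrophage growth factor Csf1 at -0.82 (SE 0.43) and the fractalkine receptor Cx3cr1 at -0.81 (SE 0.53). Without Vec 3 and Vec 5 the medians of these signalling and attractant lists were -0.21 and 0.07.

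Most markers of monocytes and macrophages, like the 10 genes, were lower on average in Adamts7 tumors. The 12 tested monocyte markers had a median log2 fold change of -0.68 and the 13 macrophage markers of -0.73. Of these, 10 and 11 were negative, and 2 of each list were positive. By limma 0 were called in either list, and 3 and 4 were lower at an unadjusted p under 0.05. Without Vec 3 and Vec 5 these medians were -0.12, over the 11 monocyte markers then tested, and 0.01. The summed monocyte markers were at 721 to 1390 TPM in Adamts7 tumors and 932 to 1792 TPM in Vec tumors, and the summed macrophage markers at 606 to 2421 TPM and 1212 to 6657 TPM in Adamts7 and Vec tumors. In Vec 1, 2 and 4 the macrophage sum was at most 1623 TPM. Such sums follow their most abundant genes. Fn1 was a large part of the monocyte sum, at 537 to 978 TPM in Adamts7 tumors and 444 to 985 TPM in Vec tumors. Its log2 fold change was 0.05, and the sum is not read as monocyte content. No marker of either list was at 0 in all tumors. The part of these cells in the differences was not tested.

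Taken as its log2(TPM + 1) minus the mean of the monocyte markers, Ccr2 lay between -1.31 and -0.62 in Adamts7 tumors and between -0.58 and 0.89 in Vec tumors, with means of -0.90 ± 0.25 and 0.09 ± 0.59 (SD, n = 5 each). The groups did not overlap, by a gap far smaller than their spread. It was the only such case among 20 differences of the 10 genes from the 2 marker lists. The share of such differences over all genes was not computed, and the 4.89% of all tested genes that did not overlap is of plain levels. Nothing is read from this case.

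Lymphocyte markers had medians of -1.69 over 10 T cell markers and -1.53 over 8 natural killer cell markers, all negative. By limma 0 were called, and 10 and 7 were lower at an unadjusted p under 0.05. By the same rule 15.3% of all tested genes were lower, a share that applies to such counts of every list here. Some natural killer cell markers averaged under 1 TPM in Adamts7 tumors and passed the filter only through the Vec tumors. Nothing is read from the count of that list. The medians without Vec 3 and Vec 5 were -0.70 over the 10 T cell markers and -0.77 over the 5 natural killer cell markers then tested. The summed T cell markers were at 21.2 to 51.2 TPM in Adamts7 tumors, at 443 and 330.4 TPM in Vec 3 and Vec 5, and at 50.1 to 70.0 TPM in Vec 1, 2 and 4. Neutrophil markers were near the floor, with 6 of 9 listed under a mean of 1 TPM, a sum of 1.70 to 10.2 TPM in Adamts7 tumors and 3.99 to 41.9 TPM in Vec tumors, and Cxcr2 listed at 0 TPM in 4 Adamts7 and 3 Vec tumors. The part of lymphocytes and neutrophils in the differences was not tested.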

How the data were processed

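Tumor RNA was sequenced as paired reads of 150 bases from libraries with unique molecular identifiers and added spike-in RNA, and bcl2fastq 2.17 made the read files, per the labels' protocols. The authors used RSEM, DESeq2 and the build mm39, per the submitters' processing notes. The annotation, and whether identifiers or spike-ins entered the counting, are not given in the sources used here. For expression the authors deposited log2(TPM + 1) values per gene symbol, which were raised back to TPM and summed to between 995286 and 998019 per tumor. TPM keeps no depth, so no counting interval is given. The authors' deposited comparison table lists, per gene, the normalized signal averaged over tumors, the log2 fold change, its standard error, the score that is their quotient, and the raw and adjusted p-value. Its fold changes were read as Adamts7 over Vec because that of Adamts7 is positive. The deposited repertoire table was not used here, and 0 columns of other samples were found.

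Groups were taken from sample titles. The test was that of limma 3.58.1 (R 4.3.3), run on genes averaging at least 1 TPM. It used log2(TPM + 1), whose pseudocount of 1 TPM understates changes of low genes, a trended prior variance, no covariate beside group, and a threshold of 0.05 after Benjamini-Hochberg adjustment over all tested genes. Ratios, shares and profiles were computed with Python 3.11.15 and pandas 2.3.3. The test was checked on simulated data in which the genes varied independently. Such data hold no tumor that stands apart in many genes at once, so the check says nothing of that case. No tumors had identical values. The genes studied, the other lists and the fits without Vec 3, Vec 5 and the tumor labelled Adamts7 5 were chosen with earlier results of these data known. Named are the 10 genes, Adamts7, the genes reported from among the 4 of each other list with the smallest p, and the 2 nearest profiles of each gene without predicted genes, clone names and pseudogenes. Some genes of the lists enter the counts but are not reported here by name. Cxcr2, Pmel, Fn1 and Rela were named after their values were seen. Promoter coordinates are of GRCm38.p6, not of the build the authors named. Alternatives changed the pseudocount, the filter, the scaling or the prior variance, weighted the tumors, blocked on replicate number, or left out each tumor in turn.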

Additional observations from a re-analysis of the deposited data

Results flagged for a closer look

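Adamts7 transcripts in the tumor labelled Adamts7 5 stood apart from the other 4 Adamts7 tumors. The tumor was at 18.2 TPM, against 74.8 to 96.0 TPM in Adamts7 1 to 4, and on the log2(TPM + 1) scale the gap to the nearest of them was 0.848 of the whole range of the group, above Dixon's critical value of 0.71 for 5 samples. On the TPM scale the same share was 0.728. It was 1 of 22 groups of values examined, and chance alone marks about 1 in 20. In the 10 chemokine and receptor genes no tumor was marked in either group.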

How the results depend on the processing

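None of the 10 genes was called in any alternative. Under the alternatives, 197 log2 fold changes of these genes kept their direction and 13 turned positive. With tumor weights Ccl6 was at 0.15, Ccl9 at 0.044 and Ccr1 at 0.15, and all others were nearer to 0, among them Ccl7 at -0.055 and Ccl12 at -0.12, with a median of -0.28 over the 10 genes. Without Vec 3 alone Ccl6 was at -0.064 and Ccr1 at -0.095, and the median was -0.74. Without Adamts7 4 alone it was -0.86 and without Vec 5 alone -0.80. Without Vec 3 and Vec 5, Ccl6, Ccl7, Ccl9, Ccl12 and Ccr1 were at 0.34, 0.11, 0.021, 0.12 and 0.31, and at 0.47, 0.25, 0.38, 0.27 and 0.40 when the tumor labelled Adamts7 5 was dropped too. The cause of the turn with tumor weights was not tested. Over the other 19 alternatives, those without Vec 3 and Vec 5 aside, the lowest adjusted p was 0.108, for Ccr2 without 1 tumor (limma).

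The number of all genes called lower was 30, and higher 4. It was 9 and 1 with no filter, 956 and 263 with tumor weights, and 689 and 225 without Vec 3, Vec 5 and the tumor labelled Adamts7 5. With 1 tumor left out it ran from 5 to 487 lower and from 0 to 170 higher, the highest counts both coming without the tumor labelled Adamts7 5. Fewer genes were lower without Adamts7 1 to 4, at 16, 5, 5 and 6, and without Vec 3 to 5, at 9, 6 and 6. Median-of-ratios scaling gave 8 higher, quantile normalization 10 and a prior variance without a trend 8. The median over all genes was -0.10 in the test reported, 0.01 under median-of-ratios scaling and 0.04 under quantile normalization. With a replicate block 0 genes were lower and 0 higher, at an unadjusted p under 0.05 2169 and 859. Correlations of same-numbered deviations ran from -0.278 to 0.262, which cannot show whether the numbers pair the tumors. The numbers were not treated as pairs in the test reported. Depth per tumor is unknown, so the precision of Ccl3, Ccl4 and Ccr1 at a few TPM cannot be given. Their normalized signal averaged over tumors was 38.1, 36.9 and 184 in the authors' deposited table.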

Other observations

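Other cell types of the tumors were read from marker lists. The 9 melanocyte markers all had log2 fold changes above 0, with a median of 2.19 and 0 called by limma, 1 of them at an unadjusted p under 0.05, and their sum was 12816 to 23366 TPM in Adamts7 tumors and 313 to 16885 TPM in Vec tumors, lowest in Vec 3 and next lowest, at 1945 TPM, in Vec 5. With those 2 tumors left out, 5 melanocyte markers were positive and 4 negative, with a median of 0.36. Fibroblast and endothelial markers had medians of -0.22 and -0.24, with 5 of 8 and 7 of 8 negative, 0 called by limma, and 0 and 2 lower at an unadjusted p under 0.05. The fibroblast median turned to 0.22 without Vec 3 and Vec 5, with 5 of 8 positive, and the endothelial median was -0.08, with 5 of 8 negative. Fap, a protease of activated fibroblasts, averaged 10.9 TPM in Adamts7 tumors and 6.58 TPM in Vec tumors, while Dcn and Lum, proteoglycans of the matrix, averaged 31.8 and 13.5 TPM in Adamts7 tumors and 102.0 and 42.6 TPM in Vec tumors. Dendritic cell markers had a median of -0.96, with 7 of 7 negative, 0 called and 5 lower at an unadjusted p under 0.05, and Batf3, a factor of cross-presenting dendritic cells, averaged 10.9 TPM in Adamts7 tumors and 23.8 TPM in Vec tumors. The dendritic cell median was -0.30 without Vec 3 and Vec 5, over the 4 markers then tested. Some of the 7 averaged under 1 TPM in Adamts7 tumors and passed the filter only through the Vec tumors, so nothing is read from their count.

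Atypical chemokine receptors, which bind chemokines without G protein signalling, had a median of -0.33 over 4 tested, with 4 negative, 0 called by limma and 0 at an unadjusted p under 0.05. The median turned to 0.30 without Vec 3 and Vec 5, with 3 of 3 then tested positive. Ackr3 averaged 3.43 and 4.42 TPM in Adamts7 and Vec tumors and Ackr2, a scavenger of CC chemokines, 1.15 and 1.57 TPM. Of the eosinophil markers 1 of 6 listed passed the filter, Ear2, with a log2 fold change of -0.94 (SE 0.70, limma adjusted p = 0.441), and of 0.10 without Vec 3 and Vec 5.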
